A study of Bos taurus with 252 samples.

Results

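The step from day 3 to day 7 was followed in the whole blood of 42 crossbred steers, each sampled on both days. The labels give the species as Bos taurus, while the study classed each animal by eye as Bos taurus or Bos indicus in breed, and breed, which is constant within a steer, was not used here. Every steer gave 6 libraries in all, the others being from day 0, before the step, and from day 14, day 21 and day 56, after it. The 84 libraries of days 3 and 7 formed 42 pairs. A pair is the day 7 library of a steer set against the day 3 library of that steer, and the steers of all 7 groups were pooled. The groups held 6 steers each, namely untreated negative controls (NC) and steers that received 1 of 6 antimicrobials once, after the blood of day 0 was drawn. These were the cephalosporin ceftiofur (CEFT), the fluoroquinolone enrofloxacin (ENRO), the phenicol florfenicol (FLOR), the tetracycline oxytetracycline (OXYT) and the macrolides tildipirosin (TILD) and tulathromycin (TULA). All steers, NC included, had been given tildipirosin, a trenbolone and estradiol implant, respiratory vaccines and antiparasitic drugs earlier, when backgrounding began. Their age is not given in the sources used here. Each treatment was kept in 1 pen and the groups were handled in the same order on every sampling day, so that treatment, pen and handling order cannot be told apart. All libraries of a steer were sequenced on the same lane, with 14 steers on each of 3 lanes, and lane therefore drops out of the comparison within steers. The lanes held different treatments. All NC and ENRO steers were on lane 1, all TULA steers on lane 2 and all CEFT and OXYT steers on lane 3. FLOR was split over lanes 1 and 2, and TILD over lanes 2 and 3. Between lanes, lane and treatment therefore cannot be told apart.

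Whole blood collected into PAXgene tubes carries the RNA of every circulating cell at the moment of the draw. Neutrophils and monocytes are phagocytes that sense microbes through Toll-like receptors and release inflammatory mediators, and monocytes leave the blood to become tissue macrophages. Lymphocytes comprise T cells, which in cattle include a large gamma delta fraction bearing WC1 receptors, and B cells, which mature into antibody-secreting plasmablasts that pass through blood after antigen exposure. In bulk blood, fewer cells of a type and less RNA per cell of that type cannot be told apart.

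Library totals of the 84 libraries, in units of 1000000 counts, lay between 26.9 and 69.2, with a median of 43.8. Markers of T cells, B cells, neutrophils, monocytes, platelets and red cells were present in every library, which matches the label of whole blood. Of 8 library measures, among them the total count, the hemoglobin share and the number of genes detected, the largest shift was in the total count, which was 3.17 of these units higher on day 7 (SD 8.50, n = 42; permutation test, p = 0.0196, adjusted p = 0.149). Hemoglobin genes took a median of 0.623% of counts on day 3 and 0.991% on day 7, but lay between 0.00917% and 25.5% in single libraries. Transcripts of skeletal muscle or connective tissue stood out in 10 libraries of 9 steers, 7 of day 3 and 3 of day 7, and reached 395 CPM (counts per 1000000 counts) for the summed muscle genes and 699 CPM for the summed connective tissue genes, against medians of 0.1 and 2.53 CPM over the 84 libraries. Results that rest on these libraries are given with and without the 9 steers.

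Between day 3 and day 7, with the groups pooled, most monocyte markers and part of the inflammatory mediators tested fell, and many markers of T cells, plasmablasts and dividing cells rose, mostly by small amounts. Of 19056 genes tested, 3461 (18.2%) were differentially expressed within steers at a false discovery rate (FDR) of 0.05 by the quasi-likelihood test of edgeR. Of these, 1652 (8.67%) were higher and 1809 (9.49%) lower on day 7. The median size of their log2 fold change (log2FC) was 0.21, a change of 1.15-fold, while the median log2FC of all genes tested was 0.02. Larger changes were mostly downward. A change of at least 1.2-fold was fitted for 275 higher and 983 lower genes, one of at least 1.5-fold for 32 higher and 174 lower genes, and one of at least 2-fold for 6 higher and 55 lower genes.

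**Figure D1:**
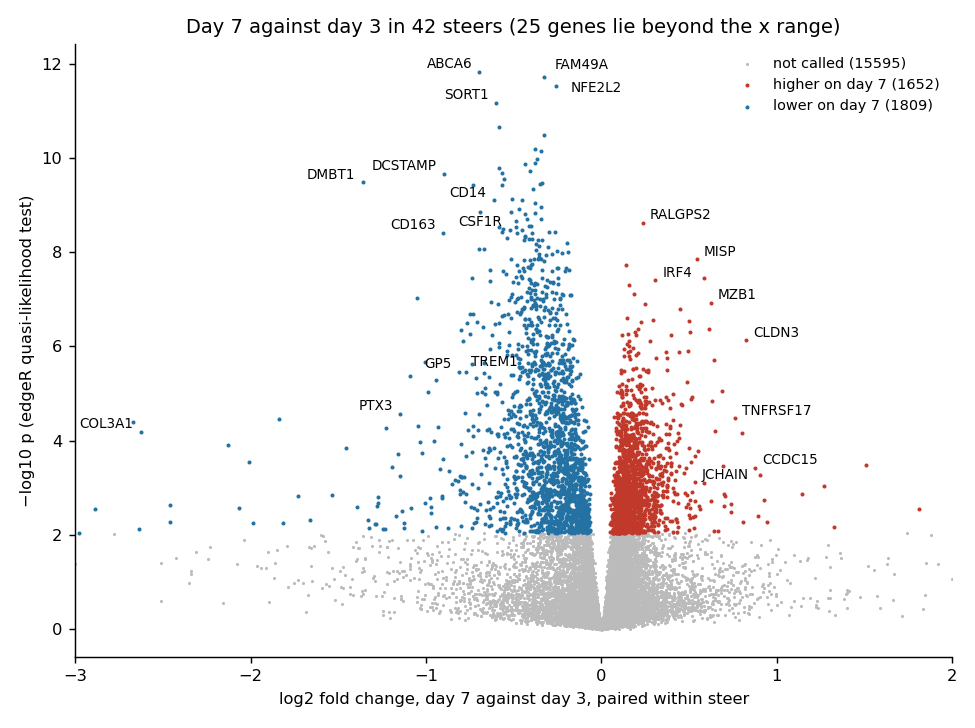
Change of each of the 19056 genes tested from day 3 to day 7 (x axis, log2 fold change) against the unadjusted edgeR p-value (y axis, -log10), with named genes labelled and 25 genes lying beyond the range of the x axis. The 1652 genes called higher stay close to 0 on the x axis, whereas the 1809 genes called lower extend further out.

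The steers did not all change alike. The fitted direction was shared by at least 30 of 42 steers for 2131 of the 3461 genes. Over all genes tested, the change of a steer correlated with the mean change of the other 41 steers at a median of 0.15, between -0.07 and 0.28, and the correlation was positive in 37 of 42 steers. Without the pairing of libraries within steers 1413 genes were called, without the OXYT steers 2082, and without the 9 steers with muscle or connective tissue transcripts 2349.

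Monocyte markers were lower on day 7. Of 16 markers tested, 11 fell, none rose and all 16 had a negative log2FC, with a median of -0.34, whereas 9.49% of all genes tested fell. The mean change of the 16 markers was negative in 37 of 42 steers. CD163, the scavenger receptor of monocytes and macrophages that takes up hemoglobin bound to haptoglobin, lay between 23.9 and 201 CPM on day 3 (median 72.2) and between 7.64 and 98.5 CPM on day 7 (median 38.5). It was lower on day 7 in 37 of 42 steers, and its log2FC was -0.90 ± 0.12 (SE, n = 42; edgeR FDR = 1.54e-06). The values of the days overlapped, but each group had a lower median on day 7.

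CD14, the receptor that presents bacterial lipopolysaccharide to TLR4, ranged from 41.1 to 150 CPM on day 3 (median 66.8) and from 19.8 to 123 CPM on day 7 (median 42.8). This was a log2FC of -0.61 ± 0.08 (edgeR FDR = 5.95e-07), with a decrease in 37 of 42 steers. CSF1R, the receptor for the growth factor that maintains monocytes, had medians of 235 CPM on day 3 and 156 CPM on day 7 and was lower in 35 steers. Further members that fell were VCAN, a proteoglycan (log2FC -0.52), MS4A7 (-0.36), CCR2, the chemokine receptor by which monocytes leave the marrow (-0.26), the costimulatory ligand CD86 (-0.20), C1QA of complement (-0.32), the mannose receptor MRC1 (-0.29) and MERTK, which clears dying cells (-0.39). The other members, CD68, CX3CR1, C1QB, C1QC and CLEC7A, had log2FC between -0.54 and -0.09 and did not pass the test.

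Within the sequencing lanes, which held different treatments, the median log2FC of the monocyte markers was -0.33 on both lane 1 and lane 2, and lane 3 had -0.43. The group medians were -0.55 for OXYT, -0.41 for CEFT, -0.40 for NC, -0.36 for FLOR, -0.29 for both ENRO and TILD and -0.20 for TULA. No marker differed between groups in its change, which does not show that the groups changed equally. With any single group left out, 9 to 12 of the 16 markers fell, and 10 fell without the 9 steers with muscle or connective tissue transcripts. Without the pairing, 7 fell.

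The 5 genes with the smallest p-values among those that fell were ABCA6, FAM49A, NFE2L2, SORT1 and GPT2. ABCA6, a transporter of the ABC family, lay between 16.1 and 99.5 CPM on day 3 (median 39.8) and between 10.9 and 57.2 CPM on day 7 (median 24.1), with a log2FC of -0.70 ± 0.07 (edgeR FDR = 1.77e-08) and a decrease in 39 of 42 steers. FAM49A, whose protein binds the GTPase RAC1, was lower in 41 of 42 steers, more than any of the other 4, with medians of 145 CPM on day 3 and 118 CPM on day 7. NFE2L2, the transcription factor of the oxidative stress response, and SORT1, a sorting receptor, were each lower in 40 steers, with log2FC of -0.26 and -0.60. GPT2, an alanine aminotransferase of mitochondria, was lower in 37 steers (log2FC -0.59). These genes were picked by their p-values in the same steers, so their agreement in sign is a description.

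**Figure D2:**
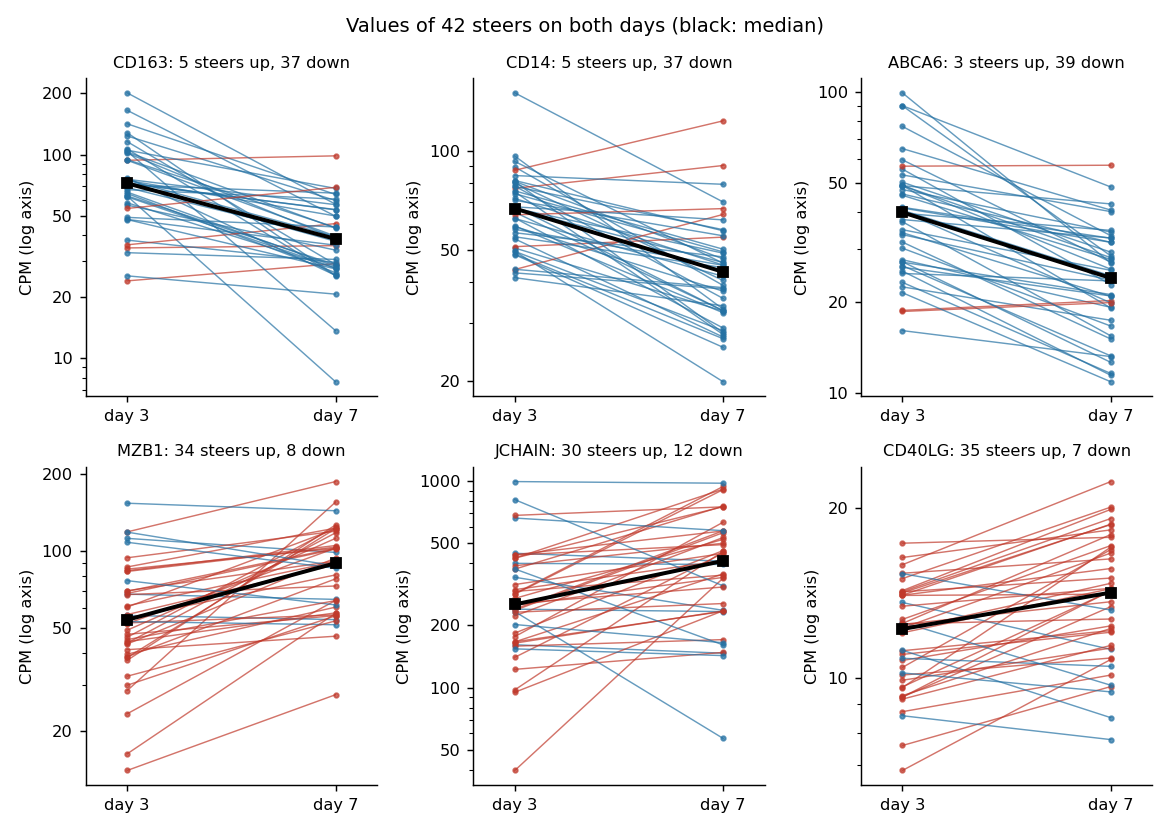
CPM (log axis) of CD163, CD14, ABCA6, MZB1, JCHAIN and CD40LG on day 3 and day 7, with 1 line per steer (red up, blue down) and the median in black. Lines of CD163 go down in 37 of 42 steers and those of ABCA6 in 39, while lines of MZB1 go up in 34 and those of JCHAIN in 30.

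The 12 largest decreases named by rule included DMBT1, DCSTAMP and PTX3. DMBT1, a secreted scavenger receptor that binds bacteria, ranged from 0.777 to 33.5 CPM on day 3 (median 5.41) and from 0.303 to 26.3 CPM on day 7 (median 2.46). Its log2FC was -1.36 ± 0.17 (edgeR FDR = 3.35e-07), and 39 of 42 steers were lower on day 7. By group, its log2FC lay between -0.80 in FLOR and -2.86 in OXYT, and the median level went from 9.91 to 1.13 CPM in OXYT, from 10.5 to 3.44 CPM in ENRO, from 9.36 to 3.80 CPM in TILD, from 4.96 to 1.27 CPM in CEFT, from 7.38 to 3.54 CPM in NC, from 4.25 to 2.16 CPM in FLOR and from 3.60 to 2.31 CPM in TULA. DMBT1 was thus lower on day 7 in the median of every group. DCSTAMP, needed for the fusion of macrophage-lineage cells, was lower in 39 steers, with medians of 7.47 CPM on day 3 and 3.90 CPM on day 7 (log2FC -0.90 ± 0.11). PTX3, a pentraxin of innate immunity, was lower in 35 steers, with medians of 3.32 and 1.5 CPM and a log2FC of -1.15 ± 0.24 (edgeR FDR = 0.000748), though its highest value, 183 CPM, came on day 7.

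Neutrophil markers were also lower. Of 17 tested, 7 fell, where 9.49% of all genes tested fell. None rose and 16 had a negative log2FC, with a median of -0.29, and the mean change was negative in 35 of 42 steers. TREM1, which amplifies inflammatory signals on myeloid cells, ranged from 29.8 to 171 CPM on day 3 (median 68.4) and from 21.9 to 142 CPM on day 7 (median 52.3), with a log2FC of -0.44 ± 0.08 (edgeR FDR = 0.000152) and a decrease in 37 steers. The integrin chain ITGB2, the calcium-binding S100A9, the IgA receptor FCAR and ALPL also fell, with log2FC between -0.72 and -0.15. The receptors CXCR1 (log2FC -0.29) and CXCR2 (-0.21) did not pass the test. In NC the median log2FC of the list was 0.14, with the mean change positive in 2 of 6 steers, while it was -0.72 in ENRO, -0.51 in TILD, -0.45 in OXYT, -0.29 in FLOR, -0.19 in CEFT and -0.06 in TULA. Without NC 12 of the 17 markers fell, with any other group left out 5 to 8, and without the pairing 5. Monocyte and neutrophil means were both negative in 33 steers.

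Genes of neutrophil granules and antimicrobial peptides showed larger but more scattered differences. Of 19 tested, 3 fell and none rose, where 9.49% of all genes tested fell. The median log2FC was -0.48, and the mean change lay between -2.29 and 1.01 across steers. Those that fell were LYZ, the lysozyme that digests bacterial walls (log2FC -0.41), HP, the haptoglobin that binds free hemoglobin (-0.48), and LCN2, which binds bacterial siderophores (-0.25). HP lay between 42.6 and 539 CPM on day 3 (median 140) and between 31.8 and 337 CPM on day 7 (median 97.5), and it was lower in 36 of 42 steers.

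Inflammatory mediators fell in part. Of 27 tested, 12 fell and 1 rose, where 9.49% of all genes tested fell and 8.67% rose. The median log2FC was -0.25. The group medians were -0.36 in ENRO, -0.27 in TILD, -0.26 in CEFT, -0.24 in OXYT and -0.08 in TULA, against -0.06 in NC, where 12 members were positive and 15 negative, and 0.01 in FLOR, where 14 were positive and 13 negative. The count that fell was 5 without OXYT, 5 without the pairing and 8 without the 9 steers with muscle or connective tissue transcripts. IL1RN, the antagonist of the IL1 receptor, ranged from 146 to 472 CPM on day 3 (median 287) and from 106 to 426 CPM on day 7 (median 198), a log2FC of -0.39 ± 0.07 (edgeR FDR = 0.000115) with a decrease in 35 steers. Also lower were the inflammasome sensor NLRP3 (log2FC -0.31, lower in 37 steers), the cytokines IL1B (-0.29), OSM (-0.36), IL10 (-0.40), IL18 (-0.40), IL15 (-0.13) and TNFSF13B (-0.36), and the feedback inhibitor SOCS3 (-0.40). TNF was the member that rose, by 0.09 on the log2 scale.

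Among Toll-like receptors and their adaptors, 9 of 22 tested fell and 1 rose, where 9.49% of all genes tested fell and 8.67% rose. The median log2FC was -0.08. TLR2 and TLR4, the receptors for bacterial lipoproteins and lipopolysaccharide, had log2FC of -0.30 and -0.32 and were each lower in 35 steers. The TLR4 partner LY96 (-0.25), the flagellin receptor TLR5 (-0.39), the RNA sensor TLR7 (-0.20) and the adaptor MYD88 (-0.27) also fell. TLR3, which senses double-stranded RNA, rose (0.15), with an increase in 33 steers. Without OXYT 5 of the 22 fell, and without the pairing 6.

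Platelet genes and genes of connective tissue were lower as well. All 16 platelet genes had a negative log2FC, with a median of -0.33, and 5 of them fell, where 9.49% of all genes tested fell. FLOR went the other way, with a median of 0.19, 12 of 16 members positive and a positive mean change in 5 of 6 steers, and NC had 8 members of either sign. The medians of the other groups lay between -0.62 in CEFT and -0.22 in TILD. F13A1, a subunit of coagulation factor XIII that monocytes also express, ranged from 514 to 1173 CPM on day 3 (median 771) and from 364 to 932 CPM on day 7 (median 635) and was lower in 36 steers. GP5, of the platelet receptor for von Willebrand factor, was lower in 35 steers (log2FC -0.81 ± 0.15). The count of platelet genes that fell was 2 to 7 with 1 group left out, and 2 without the 9 steers with muscle or connective tissue transcripts.

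The collagen genes COL3A1, COL1A2 and COL1A1 showed the largest decreases of the 12 genes named by rule for their size of decrease. COL3A1 lay between 0 and 220 CPM on day 3 (median 1.13) and between 0 and 114 CPM on day 7 (median 0.243), was lower in 33 steers and higher in 8, and had a log2FC of -2.63 ± 0.59 (edgeR FDR = 0.00142). The medians of COL1A2 were 1.22 and 0.400 CPM and those of COL1A1 were 1.23 and 0.302 CPM, so that each was close to absent in most libraries, with single libraries above 50 CPM on either day. By group, the log2FC of COL3A1 ran from -6.70 in CEFT to -1.08 in NC, that of COL1A2 from -5.76 in CEFT to -0.24 in TULA and that of COL1A1 from -3.93 in CEFT to -0.22 in TULA. The 9 steers with muscle or connective tissue transcripts include every library with over 50 CPM of summed connective tissue genes, and the log2FC without them was -2.48 for COL3A1, -1.88 for COL1A2 and -1.76 for COL1A1, all 3 past the threshold. Without the pairing, none of the 3 passed (edgeR FDR = 0.0675, 0.0740 and 0.0990). EFEMP1 of the extracellular matrix (log2FC -1.16) and the surface glycoprotein THY1 (-0.81) fell too. Without the 9 steers their log2FC was -0.95 and -0.70, both past the threshold. Without the pairing THY1 passed (edgeR FDR = 0.0329) and EFEMP1 did not (edgeR FDR = 0.177). Of 12 skeletal muscle genes, all had a negative log2FC, with a median of -2.25, but only myoglobin (MB) passed the test, and its median was 0 CPM on both days. Without the 9 steers the median of the list was -0.16 and none of the 12 passed, and without CEFT it was -0.77, again with none. The 9 steers were picked in part by a sum of muscle genes above 10 CPM. ACTA1, CKM, MB and MYH7 are in both that sum and this list, so the smaller median without these steers follows from how they were picked. The group medians ran from -8.16 in CEFT and -6.10 in TILD to 1.11 in TULA and 7.23 in NC. In NC the mean change was 7.79 in steer NC15, whose day 7 library held 209 CPM of summed muscle genes. The median of the mean changes over steers was -0.06 in NC, -0.08 in TILD, 0.23 in TULA and -3.34 in CEFT. The group medians over genes therefore do not describe most NC or TILD steers.

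T cell markers were higher on day 7. Of 20 tested, 12 rose, none fell and all 20 had a positive log2FC, with a median of 0.16, where 8.67% of all genes tested rose. The mean change was positive in 35 of 42 steers. CD40LG, the ligand by which helper T cells activate B cells, ranged from 6.85 to 17.3 CPM on day 3 (median 12.2) and from 7.77 to 22.3 CPM on day 7 (median 14.2), with a log2FC of 0.24 ± 0.05 (edgeR FDR = 0.000145) and an increase in 35 steers. The costimulatory receptor CD28 rose by 0.22 and the coreceptor CD5 by 0.16. The T cell receptor chains CD3D (0.15), CD3E (0.16) and CD247 (0.13), the kinase ZAP70 (0.19) and the transcription factors TCF7 (0.14), LEF1 (0.20) and BCL11B (0.22) rose as well. CD4 (0.09), CD8A (0.49), CD8B (0.06) and IL7R (0.09) did not pass the test. The OXYT steers had the largest group median, 0.40, with all 6 steers positive, while NC had 0.05 and ENRO 0.03. Of the 20 markers, 10 differed between groups in their change, where 8.75% of all genes tested did. Without OXYT 8 of 20 rose, without the 9 steers with muscle or connective tissue transcripts also 8, and without the pairing 3 of 20. Monocyte means were negative and T cell means positive in the same 32 steers.

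Among all genes tested 8.67% rose. Gamma delta T cell markers had a median log2FC of 0.16, and 4 of 10 tested rose. These were GATA3, a transcription factor of T cell development (0.25), WC1-12 (0.18), WC1.3 (0.16) and BLK, a kinase that B cells also carry (0.16). Genes of the WC1 family are near-identical copies, so how counts were divided among them is uncertain. B cell markers had a median of 0.09, and 4 of 14 rose, namely CD79A of the B cell receptor (0.15), the transcription factors EBF1 (0.17) and POU2AF1 (0.11) and again BLK, with a positive mean change in 29 steers. None rose without FLOR or without the pairing, and 1 rose without NC or without TULA. In CEFT 12 of the 14 markers were negative, with a median of -0.07, and in TULA all 14 were positive (0.22). MS4A1 (0.08) and CD79B (0.07) did not pass the test. Of 15 NK and cytotoxic cell genes, GZMK was the one that rose (0.30), and the list median was 0.05. Of the gamma delta markers 2 rose without OXYT, and 1 without the pairing. GZMK did not pass without the pairing.

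Several of the larger increases were in genes of plasmablasts and plasma cells. Of 12 tested, 7 rose and none fell, where 8.67% of all genes tested rose. The median log2FC was 0.19, with a positive mean change in 28 of 42 steers. TNFRSF17, the receptor for survival signals of antibody-secreting cells, lay between 0.439 and 8.43 CPM on day 3 (median 2.1) and between 0.772 and 9.57 CPM on day 7 (median 3.58). Its log2FC was 0.76 ± 0.16 (edgeR FDR = 0.000871), with an increase in 32 steers. MZB1, a chaperone for immunoglobulin in the endoplasmic reticulum, ranged from 14.0 to 153 CPM on day 3 (median 54) and from 27.6 to 186 CPM on day 7 (median 89.6), a log2FC of 0.62 ± 0.10 (edgeR FDR = 1.38e-05) with an increase in 34 steers. JCHAIN, which joins IgA and IgM into polymers, had medians of 253 and 411 CPM and a log2FC of 0.53 ± 0.15 (edgeR FDR = 0.00845), with an increase in 30 steers. Without FLOR or without OXYT it no longer passed (edgeR FDR = 0.0765 and 0.0620).

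IRF4, the transcription factor needed for plasma cell formation, was higher in 35 steers (log2FC 0.31 ± 0.05), with medians of 121 and 150 CPM. The protein folding and secretion genes TXNDC5 (0.37), DERL3 (0.20) and XBP1 (0.12) completed the 7. SDC1 (-0.49), PRDM1 (0.18), FKBP11 (-0.06), CD27 (0.10) and CD38 (0.05) did not pass the test. The other genes of smallest p among those that rose were RALGPS2, an exchange factor for RAL GTPases (0.23, higher in 39 steers), MISP, which positions the mitotic spindle (0.54, higher in 38), SSR3, of the complex beside the protein channel of the endoplasmic reticulum (0.16, higher in 34) and GOLPH3L, a Golgi protein of secretion (0.19, higher in 36).

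The plasmablast genes differed between groups in their change. Of the 12, 5 passed the test of a difference between the 7 groups, MZB1 among them (edgeR FDR = 0.00624), where 8.75% of all genes did. Median MZB1 went from 26 to 90.9 CPM in FLOR, from 39.2 to 84.6 CPM in OXYT, from 65.1 to 112 CPM in CEFT, from 85.8 to 111 CPM in TILD, from 62 to 83.7 CPM in ENRO and from 54 to 65.2 CPM in NC, and was 72.5 and 74.9 CPM in TULA. All FLOR and OXYT steers moved up. The log2FC of TNFRSF17 was 1.72 in FLOR, 1.64 in CEFT, 0.97 in OXYT, 0.63 in ENRO, 0.50 in TILD, 0.16 in NC and -0.21 in TULA. Its median went from 1.28 to 3.78 CPM in FLOR and from 1.29 to 5.81 CPM in CEFT, while that of NC was 2.42 and 2.83 CPM. For TNFRSF17, FLOR and CEFT thus had larger increases and lower day 3 medians than NC. The day 3 value is part of the change, so this order is partly built in, and it was not tested.

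Cell cycle genes rose as a list. Of 40 tested, 32 rose and none fell, where 8.67% of all genes tested rose. The median log2FC was 0.28, with a positive mean change in 31 of 42 steers. RRM2, the ribonucleotide reductase subunit made in S phase, lay between 13 and 118 CPM on day 3 (median 48.4) and between 27.5 and 97.8 CPM on day 7 (median 63.1), with a log2FC of 0.43 ± 0.11 (edgeR FDR = 0.00565). TYMS, which makes thymidylate for DNA synthesis, was higher in 34 steers (0.28), and PCNA, the sliding clamp of the replication fork, in 31 (0.22). The mitotic genes CDC20 (0.38), AURKA (0.29), CCNB1 (0.39) and CDK1 (0.33) rose too. The spread of RRM2 narrowed from both ends between the days.

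The change in cell cycle genes differed between groups for 28 of the 40, where 8.75% of all genes tested did. The median log2FC of the list was 0.85 in FLOR, 0.56 in OXYT, 0.29 in ENRO and 0.23 in CEFT, but -0.04 in NC, -0.03 in TILD and -0.02 in TULA. Median RRM2 went from 23.5 to 65.2 CPM in FLOR and from 65.6 to 50.8 CPM in NC. On day 7 the group medians of RRM2 lay between 48.9 and 72.5 CPM, closer together than on day 3. Without FLOR 8 of the 40 rose, and without OXYT 15. Plasmablast and cell cycle means were both positive in 25 steers and both negative in 8.

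**Figure D3:**
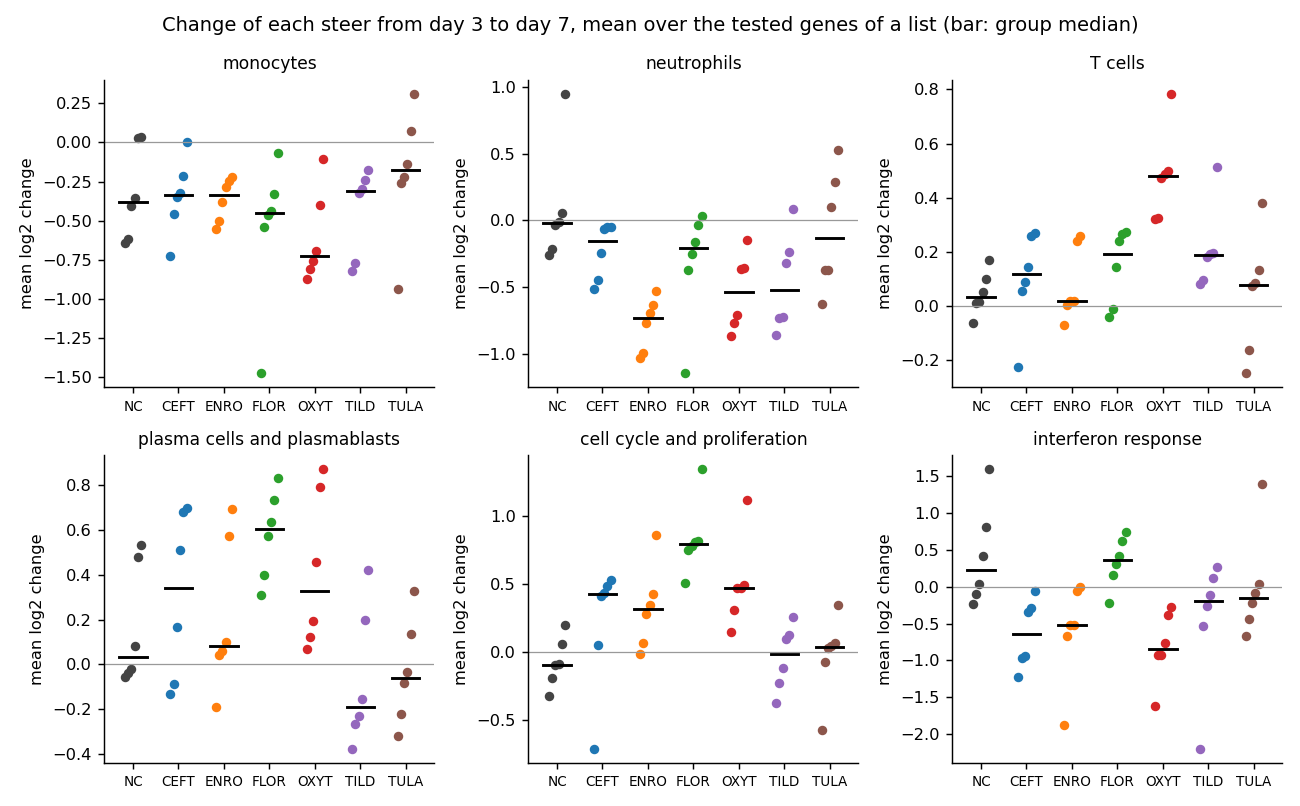
Mean log2 change of 6 gene lists from day 3 to day 7 (y axis), with 1 point per steer and a bar at the median of the 6 steers of each group. Monocyte points lie below 0 for 37 of 42 steers in all, whereas the cell cycle points of FLOR and OXYT are all above 0 and those of NC are above 0 in 2 of 6 steers.

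The median change of interferon response genes differed in sign between groups. Pooled, 6 of 44 tested fell and none rose, where 9.49% of all genes tested fell. All 44 had a negative log2FC, and the median was -0.22. STAT2, a transcription factor of interferon signalling, ranged from 112 to 380 CPM on day 3 (median 180) and from 89.4 to 412 CPM on day 7 (median 147), a log2FC of -0.29 ± 0.09 (edgeR FDR = 0.0137). IFIT5, which binds viral RNA (-0.37), and PARP14 (-0.25) fell as well, while MX1 (-0.33), ISG15 (-0.44) and RSAD2 (-0.43) did not pass the test. The group medians were -0.81 in OXYT, -0.62 in CEFT, -0.55 in ENRO, -0.35 in TILD and -0.04 in TULA, against 0.38 in NC and 0.27 in FLOR. In NC 42 of the 44 genes had a positive log2FC and in OXYT 43 a negative one, but genes of a list are not independent. By steer, the mean change was positive in 4 of 6 NC steers, between -0.24 and 1.59, and in 5 of 6 FLOR steers. It was positive in 2 of 6 steers in both TILD and TULA and in 0 of 6 in each of OXYT, CEFT and ENRO. Of the 44, 8 passed the test of a difference between groups, where 8.75% of all genes did. The count that fell was 0 without CEFT, without ENRO, without OXYT and without the 9 steers with muscle or connective tissue transcripts, 16 without NC, and 0 without the pairing.

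The remaining lists were mixed in direction or had few members past the threshold. Among all genes tested 9.49% fell and 8.67% rose. Of 20 glucocorticoid response genes, 7 fell and 1 rose, with a median of -0.16. They included CD163 again, MERTK, FKBP5, the cochaperone of the glucocorticoid receptor (-0.29), SGK1 (-0.22) and KLF9 (-0.54), while TSC22D3 (-0.16) and PER1 (0.01) did not pass the test. Immediate early genes split, as 7 of 24 fell, among them FOSL2 (-0.39, lower in 37 steers) and JUN (-0.28), and FOSB (0.51) and EGR3 (0.31) rose. Of 22 chaperones, 7 rose and 1 fell, led by HSP90B1, a chaperone of the endoplasmic reticulum (0.33, higher in 32 steers), while HSPA1A was at 0.02. Of 26 sterol and fatty acid synthesis genes, 8 rose and 1 fell, with SQLE (0.20), IDI1 (0.14) and HMGCS1 (0.29) among those that rose. Of 18 clock genes, 4 rose and 1 fell, the latter NFIL3, a repressor with a role in immune cells as well (-0.64, lower in 38 steers). These counts depended on the fit, since without the pairing 3 glucocorticoid response genes and 3 immediate early genes fell, 1 chaperone, 2 sterol and fatty acid synthesis genes and no clock gene rose, and without FLOR 1 chaperone rose.

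Among 12 dendritic cell genes, BATF3 (-0.29), CD1E (-0.20), IRF8 (-0.10) and FLT3 (-0.28) fell and ZBTB46 (0.22) rose. Of 11 eosinophil and basophil genes 1 fell, SIGLEC8 (-0.31), and of 26 erythroid genes 1, SPTB of the red cell skeleton (-0.30). Among all genes tested 9.49% fell and 8.67% rose, so neither count exceeds the share that fell. Class II presentation genes gave 2 of 14 lower and 1 higher, class I genes 1 of 17 higher, stress response genes of the ATF4 pathway 1 of 18 higher and 2 lower, and replication-dependent histones 2 of 26 higher and 1 lower. Ribosomal proteins gave 2 of 84 higher, oxidative phosphorylation 1 of 81 higher, and proteasome subunits 0 of 31, genes of mitochondrial DNA 0 of 13, and skin and hair genes 0 of 12. The last list had 9 members at a median of 0 CPM on both days. The 3 genes that led the first principal component of the whole series did not pass either, at a median log2FC of 0.72.

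**Figure D4:**
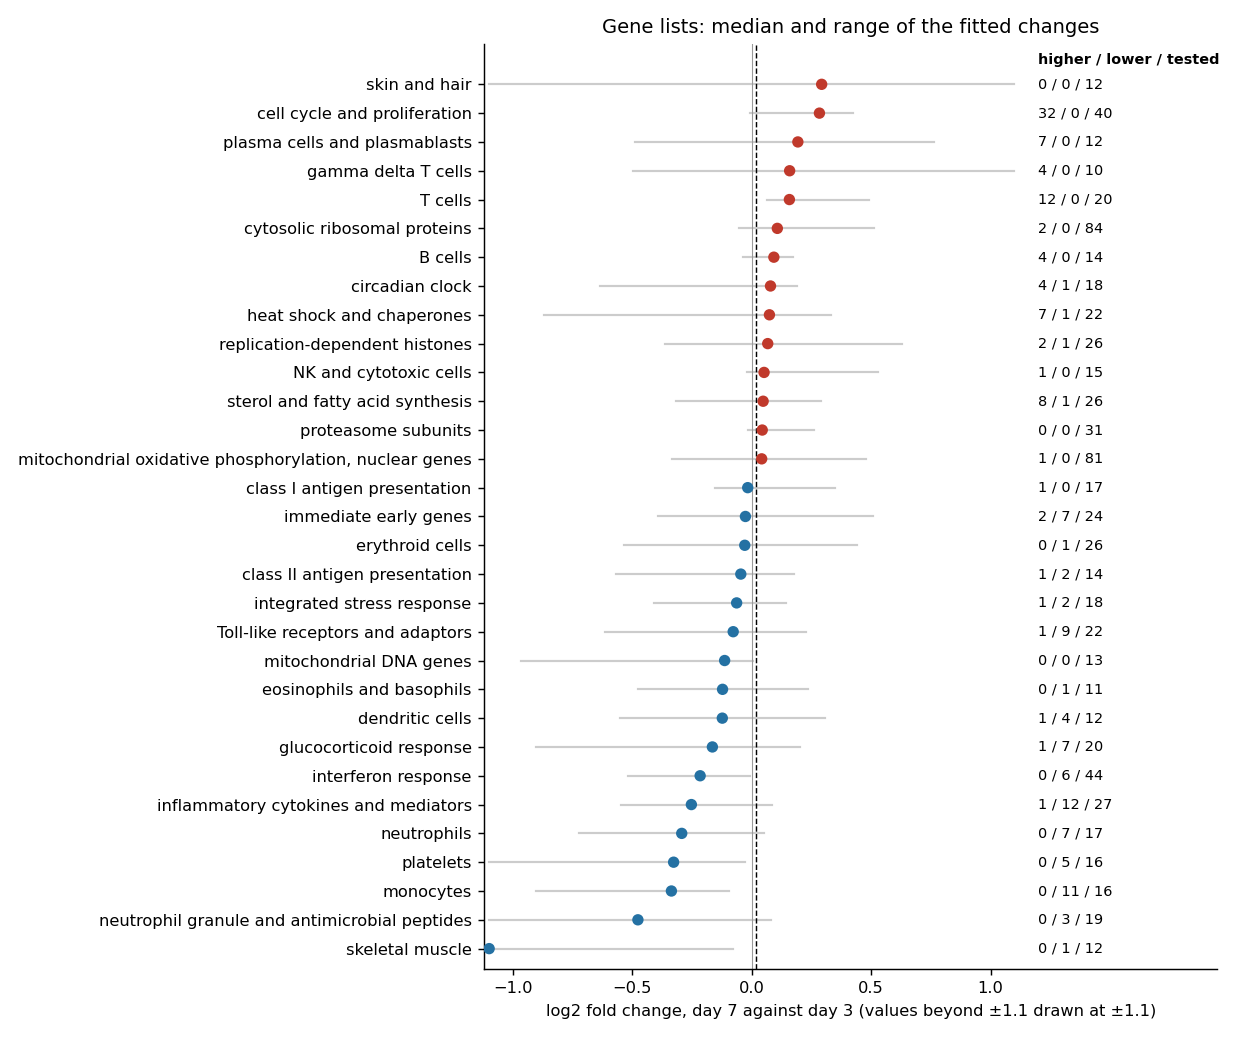
Median (point) and range (line) of the log2 fold change from day 3 to day 7 over the tested members of each gene list, except the list of 3 genes that led the first principal component, with the numbers higher, lower and tested beside each. Monocytes (0 higher, 11 lower, 16 tested) and cell cycle genes (32 higher, 0 lower, 40 tested) lie on opposite sides of 0. The median of skeletal muscle genes, -2.25, is drawn at the left edge of the axis, and the dashed line marks the median of all genes tested.

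The other large changes were spread over genes of several kinds. Among decreases, MVP, the major vault protein, had medians of 90.6 CPM on day 3 and 50.6 CPM on day 7 (log2FC -0.92 ± 0.24), and was lower in 32 steers. GULO, the last enzyme of vitamin C synthesis, had a log2FC of -0.91 at medians of 0.282 and 0.216 CPM and did not pass without ENRO or without OXYT (edgeR FDR = 0.0622 and 0.0577).

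CCDC15 had the largest increase of the 12 genes named by rule for their size of increase. It ranged from 0.543 to 7.54 CPM on day 3 (median 2.1) and from 0.130 to 12.1 CPM on day 7 (median 4.73), a log2FC of 0.88 ± 0.23 (edgeR FDR = 0.00512) with an increase in 32 steers. Its median was higher on day 7 in all 7 groups, with log2FC from 0.46 in OXYT to 1.61 in CEFT. CLDN3, a claudin of tight junctions, had medians of 1.21 and 1.74 CPM (log2FC 0.82 ± 0.14). Its change differed between groups (edgeR FDR = 0.0169), from 2.1 in FLOR, 1.42 in OXYT and 0.93 in CEFT to 0.58 in ENRO, 0.47 in NC, 0.32 in TILD and 0.11 in TULA.

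GNAI3, an inhibitory G protein subunit, spread widely, from 3.80 to 71.7 CPM on day 3 (median 21.9) and from 11.1 to 84.9 CPM on day 7 (median 39.2). Its log2FC was 0.74 ± 0.23 (edgeR FDR = 0.0180), by group from 0.13 in TULA and 0.27 in NC to 1.11 in ENRO and 1.49 in OXYT. It did not pass without ENRO, without OXYT or without the 9 steers (edgeR FDR = 0.0646, 0.123 and 0.0675). Smaller increases of the same set were those of the amino acid transporter SLC7A10 (0.65), the kinase MAP3K21 (0.64), the splicing regulator SRSF12 (0.62), CGREF1 (0.59) and EAF2, a partner of the elongation factor ELL (0.55). CGREF1 did not pass without ENRO or without OXYT.

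Whether the groups differed in the step was tested directly. The change differed between the 7 groups for 1668 genes (8.75%). Of these, 525 were also among the 3461 genes of the pooled step, which is 15.2% of the pooled genes and 31.5% of the 1668. The 10 genes of smallest p were TENT5C, ZMIZ1, DNAJC13, AKAP9, PNN, ASPM, PNRC2, RRM2, TP53RK and ZC3H13, all with an edgeR FDR of 0.00501 or 0.00591. ENRO and NC went opposite ways for ZMIZ1 and DNAJC13, and both genes also differed in change between treated and NC steers. ZMIZ1, a coactivator of transcription, went from a median of 50.8 to 77.6 CPM in ENRO and from 73.7 to 51.2 CPM in NC, with all 6 ENRO steers higher and all 6 NC steers lower. DNAJC13, of endosome traffic, went from 44.1 to 63.1 CPM in ENRO and from 59.5 to 43.7 CPM in NC, and it moved the same way in all 6 steers of each group. Library measures of these groups also moved in opposite directions. The median TMM scaling factor went from 0.977 to 1.07 in ENRO and from 1.08 to 1.02 in NC. Median genes detected went from 19718.5 to 20341 in ENRO and from 19803.5 to 19719.5 in NC. Whether this bears on the difference between them was not tested.

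The treated steers as a whole differed from NC in the change of 22 genes (0.115%), with 5 more positive and 17 more negative in treated steers. PNRC2, a coactivator of nuclear receptors, was lower on day 7 in all 6 NC steers, with medians of 145 and 94.1 CPM, and its change was 0.68 higher on the log2 scale in treated steers (edgeR FDR = 0.00801). ELAC2, which trims tRNA ends, went from a median of 16.6 to 36.9 CPM in NC, whereas the treated medians lay between 33.1 and 43.6 CPM on both days, and the difference in change was -0.95 (edgeR FDR = 0.0124). CCND3, a cyclin of lymphocyte division, was higher in all 6 NC steers, with a difference of -0.48 (edgeR FDR = 0.0150). In each case the 6 NC steers, which shared a pen and came first in the handling order, moved together. The 22 genes became 257 with limma voom, 231 with a stricter filter on low counts and 49 with RLE scaling, so the number depends on the method.

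Within single groups, 3717 genes (19.5%) were called in ENRO, 167 (0.876%) in FLOR, 128 (0.672%) in OXYT and 3 (0.0157%) in CEFT. In NC, TILD and TULA, edgeR called 0 genes (0.0%), the unadjusted p being under 0.05 for 2211, 1931 and 422 genes, and no other tool was run for single groups. The 3 genes of CEFT were DES and TNNI1 of muscle, highest in the day 3 libraries at 92.0 and 19.4 CPM, and LOC112447916, which was higher in all 6 steers. These 3 were named after their values were seen. Single lanes, which held different treatments, gave 256 genes (1.34%) on lane 1, 950 (4.99%) on lane 3 and 1 (0.00525%) on lane 2. On lane 2, 2166 genes had an unadjusted p under 0.05. The gene of lane 2 was F11R, which was at 0 CPM in the median of both days. The pooled direction was shared by 3433 of the 3461 pooled genes on lane 1, 3427 on lane 2 and 3453 on lane 3, and by 2275 in NC to 3379 in OXYT among groups, all of which are part of the pool. NC thus had the fewest genes moving with the pool.

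Set beside the other steps between neighboring sampling days, the step from day 3 to day 7 was in the middle by the number of genes called. The step from day 0 to day 3 gave 7439 genes (39%), that from day 7 to day 14 gave 8500 (44.6%), day 14 to day 21 gave 2875 (15.1%) and day 21 to day 56 gave 1823 (9.57%). The median size of the log2FC of called genes was 0.207 from day 3 to day 7, against 0.206, 0.232, 0.149 and 0.183 in the other steps, in the same order. Neighboring steps share the libraries of 1 day, so their values are only set side by side.

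CD163 had medians of 94.8, 72.2, 38.5, 29.4, 39.8 and 43.6 CPM in the order of the 6 sampling days. Its log2FC was -0.46 from day 0 to day 3, -0.90 from day 3 to day 7 and -0.26 from day 7 to day 14, the last not past the threshold (edgeR FDR = 0.0597). CD14 had medians of 73, 66.8, 42.8, 34.5, 44 and 43.5 CPM, and of its 5 steps only that from day 3 to day 7 passed the test. The same held for ABCA6, with medians of 40.6, 39.8, 24.1, 21.5, 21.5 and 22.4 CPM. ABCA6 was picked by its p-value in the step from day 3 to day 7, which favors that step. Of the 16 monocyte markers, 5 rose and 3 fell from day 0 to day 3, none rose and 11 fell from day 3 to day 7, and 1 rose and 7 fell from day 7 to day 14. Of all genes tested, 19.6% rose and 19.5% fell from day 0 to day 3, and 22.5% rose and 22.1% fell from day 7 to day 14, so that 3 of 16 lower in the first step is near the share of all genes.

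Of the 12 plasmablast genes, 1 rose and 4 fell from day 0 to day 3, 7 rose and none fell from day 3 to day 7, and 3 rose and 6 fell from day 7 to day 14. TNFRSF17 had medians of 2.09, 2.1, 3.58, 2.15, 1.83 and 1.43 CPM on the 6 days and a log2FC of -0.75 from day 7 to day 14 (edgeR FDR = 7.95e-05). JCHAIN had medians of 280, 253, 411, 238, 189 and 177 CPM, with a log2FC of -0.60 from day 7 to day 14 (edgeR FDR = 0.000365). MZB1 had medians of 55.1, 54, 89.6, 66.7, 64.7 and 52.5 CPM, and it fell from day 7 to day 14 as well. RRM2 had medians of 53.8, 48.4, 63.1, 49.2, 50.9 and 42.3 CPM, with a fall from day 0 to day 3 (log2FC -0.41), a rise from day 3 to day 7 (0.43) and a fall from day 7 to day 14 (-0.30). Of the 40 cell cycle genes, 18 fell and none rose from day 0 to day 3, and 2 rose and 19 fell from day 7 to day 14. T cell markers rose in both of the first steps, 11 of 20 from day 0 to day 3 and 12 from day 3 to day 7.

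**Figure D5:**
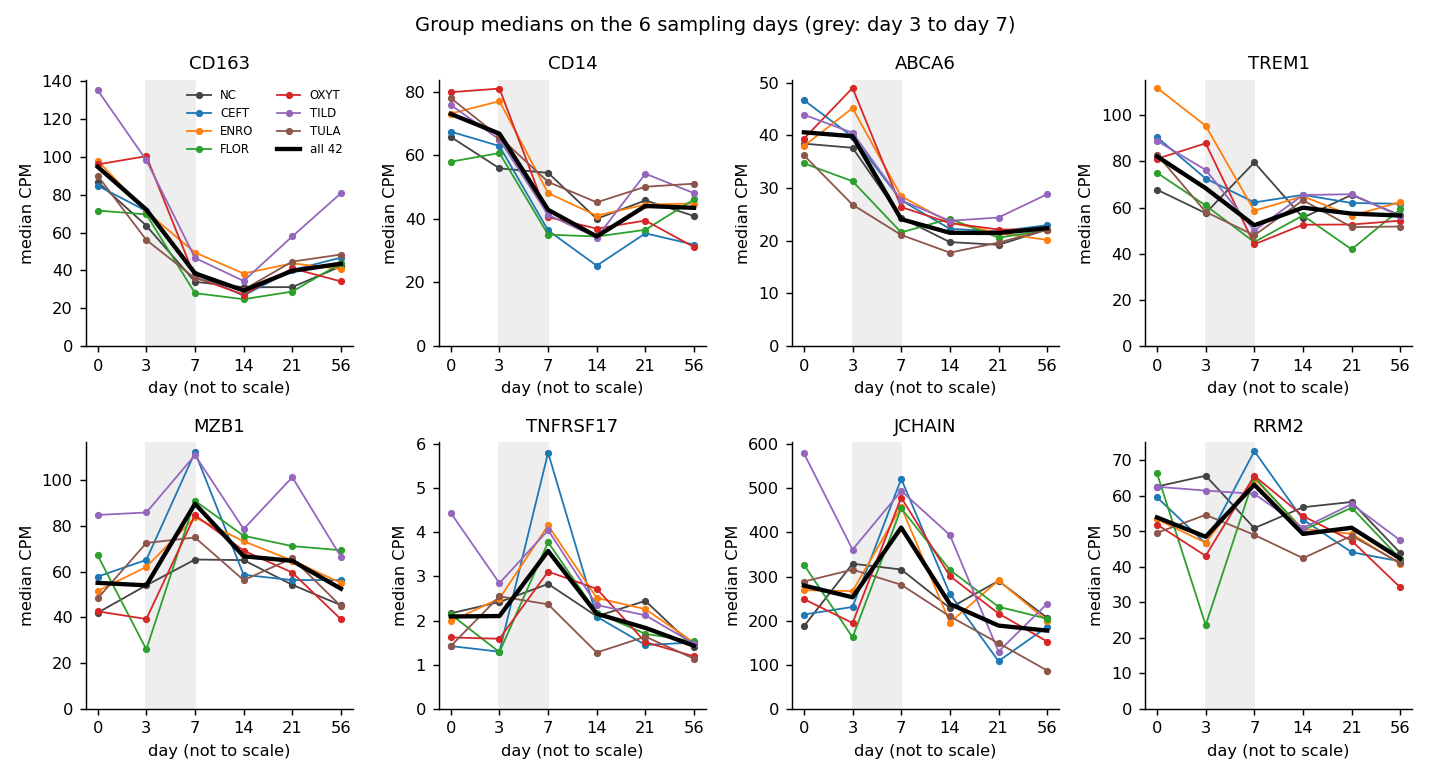
Median CPM (y axis) of CD163, CD14, ABCA6, TREM1, MZB1, TNFRSF17, JCHAIN and RRM2 on the 6 sampling days, with 1 colored line per group of 6 steers, a black line for all 42 and the step from day 3 to day 7 shaded. CD163, CD14 and ABCA6 drop within the shaded step and stay near the lower level later in the median of all steers, while TNFRSF17 and JCHAIN are highest on day 7 in that median.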

How the data were processed

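Stranded mRNA libraries were made from PAXgene whole blood. According to the submitters' processing notes, reads were trimmed with Trimmomatic 0.39, aligned with HISAT2 2.1.1 to ARS-UCD1.3 and assembled with StringTie 2.2.0. The deposited values are estimated counts that the authors derived from transcript coverage with prepDE.py3, as whole numbers without normalization. Gene copies and overlapping genes can share such counts, which rest on coverage and not on tallied reads. At the median depth of the 84 libraries of days 3 and 7, a CPM of 0.2 was 8.76 counts.

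Testing was limited to genes whose CPM exceeded 0.2 in 12 or more of all 252 libraries, 19056 of 33282, and 14226 were left out. TMM scaling and the two-sided quasi-likelihood test of edgeR 4.0.16 (R 4.3.3) were used with steer as a fixed block and a Benjamini-Hochberg FDR of 0.05 over all genes tested. CPM values use TMM-scaled library sizes. Changes per steer are differences of log2 CPM with a prior count of 2. The replicate block rests on animal identity, since both libraries come from the same steer. After removal of group means, the day 3 and day 7 libraries of a steer correlated at a median of 0.38 (lowest 0.20), against -0.07 for other steers of the group. The removal of group means itself pulls the latter value negative. Differences between the 7 groups, and between the 6 treated groups and NC, came from treatment by day terms. Library measures were tested with 100000 sign changes of the paired differences, two-sided. Alternatives used DESeq2 1.42.0, limma 3.58.1 and sva 3.50.0. Summaries were made with pandas 2.3.3, scipy 1.17.1 and numpy 2.4.6 in Python 3.11.15. The fit was tested on simulated data.

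The rule took the 12 genes with the largest change in each direction that passed an FDR of 0.05 and had a symbol. These 12 also needed a mean CPM of at least 1 and the fitted direction in at least 30 steers. The 5 genes with the smallest p in each direction needed only an FDR under 0.05 and a symbol. From each of 32 gene lists up to 4 members of smallest p were taken, whether or not they passed the test. Other list members are named by their call, and a few genes are not reported here. The comparison, the lists and the rule were chosen with earlier results of these data known.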

Additional observations from a re-analysis of the deposited data

Results flagged for a closer look

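Per-steer changes of 6 gene lists and of 8 genes were compared within the 7 groups of 6 steers, 98 comparisons in all, and in 13 the highest or lowest steer stood apart from the other 5 by Dixon's criterion (critical value 0.625), which chance alone exceeds in about 1 in 20 groups. For the lists, the mean log2 change of the outlying steer was -1.47 for monocytes and -1.15 for neutrophils in 2 FLOR steers, 0.95 for neutrophils in an NC steer, 0.51 for T cells in a TILD steer, 1.35 and 1.12 for cell cycle genes in a FLOR and an OXYT steer, and -1.88, -2.20 and 1.40 for interferon response genes in an ENRO, a TILD and a TULA steer. For single genes, it was 6.53 for COL3A1 in a TULA steer, the one with connective tissue transcripts in its day 7 library, -2.91 for DMBT1 in a TILD steer, -1.77 for TNFRSF17 in a TULA steer and -0.16 for GNAI3 in an OXYT steer.

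The change from day 3 to day 7 differed between the 7 groups for 1668 genes. The smallest edgeR FDR, 0.00501, was shared by TENT5C, ZMIZ1 and DNAJC13, followed by 0.00591 for AKAP9, PNN, ASPM, PNRC2, RRM2, TP53RK and ZC3H13. TENT5C, a poly(A) polymerase active in plasma cells, had a log2FC of 0.89 in OXYT, 0.83 in FLOR and 0.64 in ENRO but 0.09 in NC and -0.05 in TULA. ASPM, a protein of the mitotic spindle, had 1.04 in FLOR and -0.43 in NC. AKAP9, a kinase anchor, PNN, a splicing protein, and ZC3H13 were highest in ENRO, at 0.70, 0.73 and 0.57, while TP53RK was lowest there, at -0.49.

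The change differed between treated and NC steers for 22 genes. The log2 difference, treated less NC, was 1.03 for LOC783022, 0.68 for PNRC2, -0.95 for ELAC2, -0.60 for TMEM115, -0.73 for ARMC12, 0.53 for DNAJC13, -0.48 for CCND3, 0.65 for ZMIZ1 and -0.45 for POLR1C.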

How the results depend on the processing

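The number of genes called between day 3 and day 7, 3461, fell to 1413 without the replicate block, to 2082 without OXYT and to 60 (5 higher, 55 lower) when a change beyond 1.2-fold was required by glmTreat. It lay between 2349 and 4611 in the other settings, which were another test, scaling, filter, lane or hemoglobin adjustment, FDR, samples in the fit and, chosen after seeing the data, an RN18S1 covariate and the removal of 9 steers. Leaving out 1 steer at a time, by limma on paired differences, gave 3316 to 4007 genes, against 3675 with all 42. None of 200 named or called list genes reversed in these fits. The call was lost for 101 of them without the block, for 184 with glmTreat, for 79 without OXYT, for 59 without ENRO, for 58 without FLOR and for 59 without the 9 steers. The 1668 genes that differed between groups became 2508 with limma voom and 3214 at an FDR of 0.1, and the 22 that differed between treated and NC steers became 257 with limma voom, 49 with RLE scaling, 231 with a stricter filter chosen after seeing the data and 702 at an FDR of 0.1. The causes were not tested. Library measures kept their direction and their place within the spread between steers when medians replaced means. Counts estimated from coverage carry error that the depth does not show, and pen, handling order and treatment cannot be separated.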

Other observations

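The 55 genes that were lower by more than 1.2-fold in the glmTreat test included SLC11A1, HMOX1, GLUL, PDXK and LTBR, which are in none of the lists described above and were picked here with their values in view. SLC11A1, the metal transporter of phagosomes, had median levels of 206 CPM on day 3 and 146 CPM on day 7, a log2FC of -0.52 ± 0.07 (edgeR FDR = 8.89e-07), and was lower in 38 of 42 steers. HMOX1, the heme oxygenase that acts downstream of hemoglobin uptake through CD163, had medians of 71.9 and 46.5 CPM (log2FC -0.54) and was lower in 36 steers. GLUL, glutamine synthetase, was lower in 38 steers (log2FC -0.49), PDXK, pyridoxal kinase, in 38 (-0.57), and LTBR, the lymphotoxin beta receptor, in 39 (-0.51). None of GLUL, HMOX1, PDXK and LTBR differed between groups at an FDR of 0.05, whereas SLC11A1 did (edgeR FDR = 0.0327).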
